A study of Mus musculus with 16 samples.

Results

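Ezetimibe and rosuvastatin, 2 cholesterol-lowering drugs of different chemical classes, were compared at the level of the transcriptome in T cells cultured under Th17 conditions. The comparison took the 4 arrays of cells given ezetimibe (Eze) and the 4 arrays of cells given rosuvastatin (Rsv), 8 of the 16 arrays of the series, and covered 30920 genes. Both drugs were given at the same concentration, 20 µM, and whether these doses were equal in effect was not tested. All samples came from the spleens of male wild type mice of 8 weeks, of a strain that the labels spell C54BL/6, and were labelled CD4 T cells. For spleen cells analysed in vitro by flow cytometry the methods name BALB/c mice, so the strain is not settled. The labels give 3 days of culture for every sample. According to the methods, the Th17 medium held antibodies to CD3, CD28, interferon-γ and IL-4 together with TGF-β and IL-6, and drug culture is described after the stimulation. The length of drug exposure is given differently in different places, and the cells are called splenocytes there, so neither the exposure time nor the purity of the cells is settled. The other 8 arrays held untreated Th17 cells (4) and Th0 cells (4), and are used here to place the levels of both drugs. Nothing at hand says which arrays stem from separate mice or cultures. The column headings of the deposited table carry 2 prefixes that read as dates, 1 on the 4 unnumbered arrays and the other on the 12 numbered ones, so that each group holds 1 array of the first kind and 3 of the second. What the prefixes mark is not stated. The p-values therefore measure only the spread between arrays, which may be technical.

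Rosuvastatin is a statin, a class of drugs that lowers the synthesis of mevalonate, from which cells build both cholesterol and the prenyl groups that anchor small GTPases such as the Rab proteins to membranes. Ezetimibe blocks NPC1L1, the sterol transporter of the intestinal epithelium, and is not known as an inhibitor of mevalonate synthesis. Th17 cells are CD4 T cells that arise under TGF-β and IL-6 and secrete IL-17A and IL-17F. Th1 cells, which secrete interferon-γ, are a separate lineage, and cytotoxic cells kill through granzymes and perforin.

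All values are log2 signals of Mouse Gene 2.0 ST arrays as deposited. Values in brackets after a gene are the log2 difference Eze minus Rsv with its standard error (SE) and its limma p-value after Benjamini-Hochberg adjustment over all genes, from 4 arrays in each group. A gene was called at an adjusted p under 0.05. Where values of single arrays are given, the array without a number in its title comes first, followed by arrays 1, 2 and 3.

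The profiles of both drugs differed in many genes. Of the 30920 genes, 4117 (13.3%) were higher and 4685 (15.2%) were lower in Eze than in Rsv. At least 2-fold differences were less common: 226 genes (0.731%) were that much higher and 526 (1.7%) that much lower in Eze. In 8856 genes (28.6%) the 4 Eze arrays and the 4 Rsv arrays did not overlap. The mean distance between an Eze and an Rsv array over all genes was 78.8 log2 units, against 41.9 between 2 Eze arrays and 51.3 between 2 Rsv arrays. Other groups lay about as far apart. The mean distance from untreated Th17 arrays was 71.76 for Eze and 80.25 for Rsv, and that between Th17 and Th0 arrays was 70.39.

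The numbers of higher and lower genes depended on the scale. The gene medians of the arrays lay between 4.09 and 4.15 in Eze and between 4.22 and 4.37 in Rsv, and the median difference over all genes was -0.08 (quartiles -0.24 and 0.13). With each array centred on its own median, the median difference became 0.08, and 6796 genes were higher and 2010 lower in Eze, so that 77.2% of the calls were higher in place of 46.8%. The shift was one of level: among the 9088 genes brighter than the upper quartile of the background controls (5.75) the median difference was 0.13, with 3093 called higher (34.0%) and 1436 called lower (15.8%), and among the dimmer genes it was -0.13. The unnumbered Rsv array had the highest median (4.37) and the lowest upper quartile (5.84) of all arrays. A list of genes is therefore read below against the median of all genes, and lists whose direction turns with the centring are named. A list of mostly bright genes is better set against the 0.13 and 34.0% of the brighter genes. The quartile of 5.75 is also used as a strict limit of detection. A gene under it on all arrays of a drug has only a bound there, so its log2 difference is the fitted value and not a measured size. This held on the Rsv side for Anxa3, Slc7a3, Aldh1l2, Reep6, Pla2g12a, Il23a, Paqr3, Pycr1, Abca1, Rhoq, Cd226, Egr1, Hspa1b, Hspa1a, Ebf1, Mir18 and Csf2. On the Eze side it held for Xcl1, Gzmc, Gzma, Cpa3, Tcrg-C1, Tcrg-V4, Trdv2-2, Ifng, Il1r1, Il23r, Il18rap, Il3, Rhob, Klf2, Klf3, Selp, Bcl2l11, Ifi203, Irf7, Lyz2, Clec4e, Ssty2, Srsy and Sly. Lpl, Havcr2, Parp12, Anxa1, Npc1l1, Il4, Tcrg-V5, Tcrg-V7, Trdv1, Zbtb16, Cd163l1, Mir17, Mir19a, Mir20a and Mir29a were under it on every array of both drugs, and only the fitted difference of their dim signals is given. A fold given as "at least" sets the mean of the brighter drug against this limit.

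**Figure D1:**
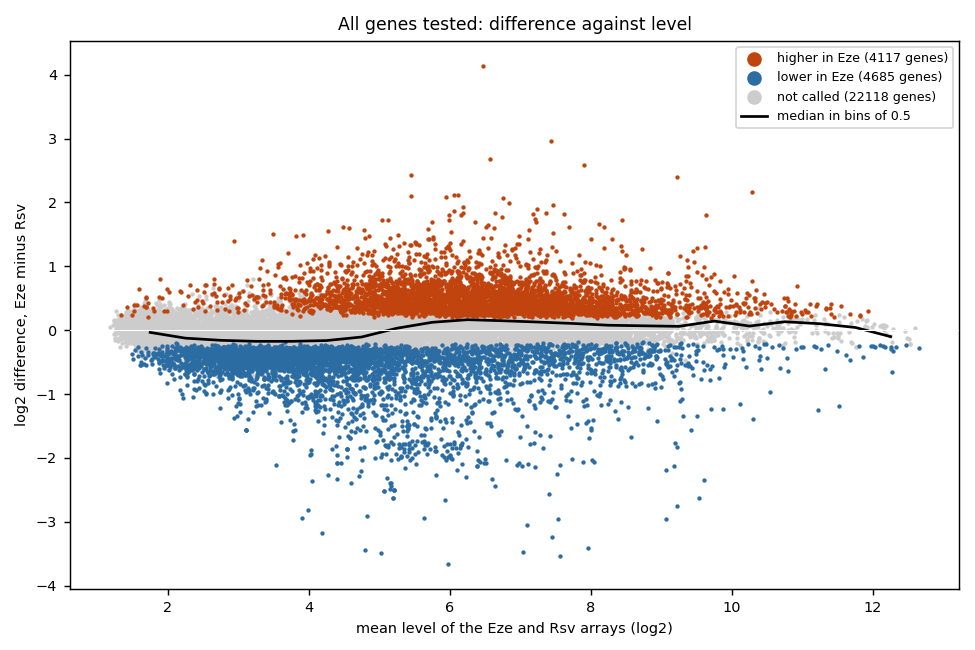
Log2 difference Eze minus Rsv (vertical axis) against the mean log2 level over the Eze and Rsv arrays (horizontal axis) for the 30920 genes tested. Genes higher in Eze (4117) are drawn in orange, genes lower in Eze (4685) in blue and genes not called in grey, and the black line is the median in bins of 0.5: it lies below 0 among dim genes and above 0 among brighter ones.

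Anxa3 showed the largest fitted difference of all. It encodes annexin A3, a protein that binds phospholipids in the presence of calcium, and lies on chromosome 5, 96793385 to 96845968 in the deposited annotation, for which no source at hand names the genome build. Its values were 8.55, 8.48, 8.56 and 8.55 in the Eze arrays and 4.22, 4.16, 4.55 and 4.66 in the Rsv arrays (4.14, SE 0.14, adjusted p = 6.01e-13). The Rsv arrays were under the limit of detection, so the gene was at least 6.89-fold higher in Eze. All Eze arrays lay far above all Rsv arrays, and also above the mean of untreated Th17 cells (5.36 ± 0.22, SD, n = 4). Of the 9 annexins measured, 3 were higher and 2 were lower in Eze, with a median of 0.05 that changed sign under 4 other settings. Anxa1, a dim gene here, was lower in Eze (-0.56, SE 0.1, adjusted p = 0.00027). Others among the 15 largest increases were Pla2g12a, a phospholipase (2.12, SE 0.09, adjusted p = 1.06e-11), Reep6, a protein that shapes the endoplasmic reticulum (2.12, SE 0.09, adjusted p = 1.1e-11), Tspan6, a tetraspanin (2.07, SE 0.11, adjusted p = 3.21e-10), and Paqr3, a Golgi protein (2.08, SE 0.12, adjusted p = 9.83e-10).

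Some of the other genes among the 15 largest increases act in amino acid supply. Cth, cystathionine gamma-lyase, makes cysteine on the route from methionine. Its values were 8.88, 8.97, 8.94 and 8.89 in Eze and 5.73, 5.98, 6.01 and 6.08 in Rsv (2.97, SE 0.12, adjusted p = 1.15e-11). Slc7a3, a transporter of cationic amino acids, read 7.83, 7.88, 7.95 and 7.96 in Eze and 4.93, 5.3, 5.29 and 5.4 in Rsv (2.68, SE 0.1, adjusted p = 3.67e-12), at least 4.45-fold higher in Eze. Neither gene overlapped between the drugs. The mean of untreated Th17 cells was 5.99 ± 0.32 for Cth and 4.79 ± 0.16 for Slc7a3 (SD, n = 4). Pycr1, the last enzyme of proline synthesis (1.93, SE 0.1, adjusted p = 2.93e-10), and Aldh1l2, a mitochondrial folate enzyme (2.42, SE 0.13, adjusted p = 2.2e-10), were higher too.

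These 4 genes are in a list of targets of ATF4, the transcription factor of the integrated stress response, which cells switch on when amino acids run short or when protein folding in the endoplasmic reticulum fails. Of 37 ATF4 targets measured, 33 were higher in Eze than in Rsv and none was lower, 22 of them by at least 2-fold, with a median difference of 1.23. Averaged over the list, the Eze arrays lay at 7.64 to 7.69 and the Rsv arrays at 6.4 to 6.53, against 6.5 to 6.54 in Th17 and 7.51 to 7.56 in Th0. The Eze and Rsv arrays thus did not overlap. The Rsv range met that of untreated Th17 cells only at its upper end, and the Eze arrays lay just above those of Th0. The enzymes that load amino acids onto tRNA in the cytosol, several of which ATF4 controls, were higher in 18 of 19 cases (median 0.61). They were led by Sars (0.99, SE 0.08, adjusted p = 8.86e-08), Eprs (0.97, SE 0.09, adjusted p = 1.14e-07) and Cars (0.89, SE 0.09, adjusted p = 8.36e-07). The exception was Wars, the tryptophan enzyme, which is also known as an interferon-inducible gene (-0.42, SE 0.11, adjusted p = 0.00692). With each array centred its difference was -0.26 (adjusted p = 0.0982). The chaperones and degradation factors of the unfolded protein response were mostly not called (4 higher and 1 lower of 20, median -0.03, and 0.12 with each array centred). Herpud1, a factor of degradation at the endoplasmic reticulum, was higher (0.69, SE 0.07, adjusted p = 1.13e-06), while Pdia3, a disulfide isomerase, was lower (-0.54, SE 0.08, adjusted p = 5.42e-05).

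The C/EBP-ATF response element, at which ATF4 binds, was looked for in the promoters of the ATF4 targets. These genes were listed as targets of ATF4, so many matches were likely whatever the arrays showed. The shares below describe the list and test nothing about the drugs. The search took the letters TGATGNAA on both strands of the RefSeq windows (build GRCm38.p6) of 250 bases before to 50 bases after each annotated start. Windows were at hand for 31 of the 37 measured targets, and 10 of the 31 (32.3%) held the element, against 723 of 18200 tested genes (3.97%). The 3 targets with the largest differences that held it before the start are shown with the element in capitals, each read along the gene and ending upstream of the start:
Pycr1, chr11:120643799-120643896, minus strand: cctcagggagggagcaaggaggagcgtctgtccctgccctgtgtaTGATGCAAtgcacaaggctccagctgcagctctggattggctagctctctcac
Asns, chr6:7693210-7693277, minus strand: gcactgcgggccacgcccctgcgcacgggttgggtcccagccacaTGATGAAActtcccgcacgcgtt
Vldlr, chr19:27216775-27216872, plus strand: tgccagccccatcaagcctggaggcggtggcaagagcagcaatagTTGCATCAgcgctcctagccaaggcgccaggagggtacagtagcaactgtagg
In Vldlr the element runs against the gene and so reads as the reverse complement. Asns, asparagine synthetase, had a log2 difference of 1.73 and Vldlr, a lipoprotein receptor, one of 1.72. A match is a description of the letters and does not show that the factor was bound there.

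Genes of glycolysis were higher in Eze than in Rsv. Genes of glycolysis and the hypoxia factor HIF-1 numbered 36, of which 31 were higher and none was lower (median 0.70). Slc2a3, the glucose transporter GLUT3, read 8.5, 8.45, 8.42 and 8.38 in Eze and 6.34, 6.33, 6.6 and 6.66 in Rsv (1.96, SE 0.09, adjusted p = 4.3e-11). Egln3, a prolyl hydroxylase that marks HIF-1 for decay, was higher by 1.8 (SE 0.07, adjusted p = 1.02e-11), and Ero1l, an oxidase of disulfide bond formation that hypoxia induces, by 2.16 (SE 0.07, adjusted p = 4.91e-13). Pgk1, phosphoglycerate kinase, was at 11.27 ± 0.1 in Eze and 10.58 ± 0.19 in Rsv (SD, n = 4 each). Under both drugs the mean level of the list stayed below that of untreated Th17 cells. It ranged over 7.92 to 8.03 in the Eze arrays and over 7.11 to 7.27 in the Rsv arrays, against 8.47 to 8.52 in Th17. The median differences from Th17, which share their control arrays, were -0.38 for Eze and -1.08 for Rsv. Hif1a itself was slightly lower in Eze (-0.25, SE 0.08, adjusted p = 0.0178), a call that was lost under 3 other settings (largest adjusted p = 0.456, with each array centred).

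Machinery for making protein and energy was higher by smaller steps. Among all genes above the background limit 34.0% were higher, with a median of 0.13, and the lists of this paragraph hold mostly such genes. Factors that process rRNA and assemble ribosomes were higher in 51 of 68 cases and never lower (median 0.33), with Utp14a (0.77, SE 0.13, adjusted p = 0.000314), Rrp12 (0.73, SE 0.08, adjusted p = 3.54e-06) and Noc2l (0.72, SE 0.08, adjusted p = 1.55e-06) at the top. Cytosolic ribosomal proteins were higher in 45 of 77 (58.4%, median 0.34), and nuclear subunits of oxidative phosphorylation in 35 of 72 (48.6%) with 1 lower (median 0.26). The 13 transcripts of the mitochondrial genome went the other way, with 11 lower and none higher in Eze (median -0.25), and none of the 13 was called with each array centred. Small nucleolar RNA genes, many of which lie in introns of ribosomal genes, were higher in 49 of 108 (45.4%) and lower in 4 (median 0.29). Chchd10, a protein of the mitochondrial intermembrane space, stood out with 9.11, 9.21, 9.31 and 9.13 in Eze and 6.23, 6.49, 6.79 and 6.91 in Rsv (2.58, SE 0.12, adjusted p = 4.89e-11). Heat shock chaperones were higher in 12 of 21 and never lower (median 0.24), among them Hspa1b (1.44, SE 0.18, adjusted p = 1.18e-05) and Hspa1a (1.12, SE 0.1, adjusted p = 2.35e-07), the inducible forms of Hsp70. Both Hsp70 genes were below untreated Th17 cells with either drug: Hspa1b averaged 5.87 ± 0.11 in Eze and 4.43 ± 0.54 in Rsv, against 8.05 ± 0.22 in Th17 (SD, n = 4 each).

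The cholesterol pathway itself separated the drugs by small steps. Of 27 genes of sterol synthesis and its regulator SREBP2, 3 were higher (11.1%) and 6 were lower (22.2%) in Eze. The median was -0.06, which became 0.09 with each array centred and -0.17 after another quantile normalization. Of the 27, 26 were above the background limit. There 34.0% of genes were higher, 15.8% were lower and the median was 0.13, so the list lay somewhat below other bright genes. Hmgcs1, which acts early in the pathway, read 9.09, 9.06, 9.11 and 9.2 in Eze and 9.61, 9.6, 9.63 and 9.68 in Rsv, without overlap (-0.51, SE 0.07, adjusted p = 4.06e-05). Sqle (-0.12, SE 0.09, adjusted p = 0.356) and Insig1 (-0.15, SE 0.08, adjusted p = 0.199) were not called. Both drugs were above untreated cells: the list averaged 7.79 to 7.86 in Eze and 7.78 to 7.94 in Rsv, against 7.5 to 7.55 in Th17. Npc1l1, the target of ezetimibe, was dim, at 4.43, 4.28, 4.66 and 4.41 in Eze and 5.08, 4.68, 4.68 and 4.42 in Rsv, under the upper quartile of the background controls, and was not called (-0.27, SE 0.12, adjusted p = 0.111).

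Among genes of sterol export and storage, 2 were higher in Eze by at least 2-fold. Of 19 genes of sterol transport and of targets of LXR, the receptor for oxysterols, 8 were higher and 3 lower in Eze (median 0.19). Soat2, which esterifies cholesterol for storage, read 7.38, 7.31, 7.33 and 7.43 in Eze and 5.61, 5.55, 5.89 and 5.82 in Rsv without overlap (1.65, SE 0.08, adjusted p = 1.65e-10). The exporters Abcg1 (1.25, SE 0.08, adjusted p = 1.24e-09) and Abca1 (0.9, SE 0.09, adjusted p = 3.35e-07), both LXR targets, were higher, as was Scarb1, a receptor for high-density lipoprotein (0.72, SE 0.08, adjusted p = 1.18e-06). Npc2, which hands cholesterol out of the lysosome (-0.59, SE 0.07, adjusted p = 5.91e-06), and Lpl, lipoprotein lipase, a dim gene here (-0.9, SE 0.11, adjusted p = 6.66e-06), were lower. Against untreated cells the exporters differed. Abca1, close to the limit of detection in Eze and under it in Rsv, averaged 5.75 ± 0.11 in Eze and 4.85 ± 0.13 in Rsv. Both means were below the 6.24 ± 0.1 of Th17. Abcg1 averaged 7.51 ± 0.1 in Eze, above the 7.11 ± 0.09 of Th17, and 6.25 ± 0.05 in Rsv, below it (SD, n = 4 each).

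Transcripts of the enzymes of prenylation, a branch that draws on mevalonate, were compared next. Of 16 enzymes of prenyl and polyprenol metabolism, 7 were higher in Eze and none was lower (median 0.26), against 34.0% higher among genes above the background limit. Rabggta (0.8, SE 0.1, adjusted p = 7.44e-06) and Rabggtb (0.77, SE 0.12, adjusted p = 0.000103), the catalytic subunits of the transferase that prenylates Rab proteins, led them. Rhob, a small GTPase that carries a prenyl group, was lower in Eze, at 4.96, 4.73, 4.99 and 5.11 in Eze and 5.73, 6.01, 6.34 and 6.05 in Rsv (-1.09, SE 0.12, adjusted p = 1.82e-06). Eze lay at the level of untreated Th17 cells (4.93 ± 0.04), and all Rsv arrays lay above all Eze arrays. Rhoq was higher (0.62, SE 0.11, adjusted p = 0.000467), and Rhoa (-0.29) and Rac1 (-0.27) were slightly lower in Eze, calls that were lost with each array centred (adjusted p = 0.296 and 0.305). Genes of the actin cytoskeleton were lower in 6 (21.4%, against 15.2% of all genes) and higher in 2 of 28. Flna, filamin A (-0.61, SE 0.07, adjusted p = 6.43e-06), and Myh9, a non-muscle myosin (-0.45, SE 0.07, adjusted p = 0.000188), were among the lower ones. With each array centred 6 were higher and 2 lower, and the median of -0.05 became 0.11.

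**Figure D2:**
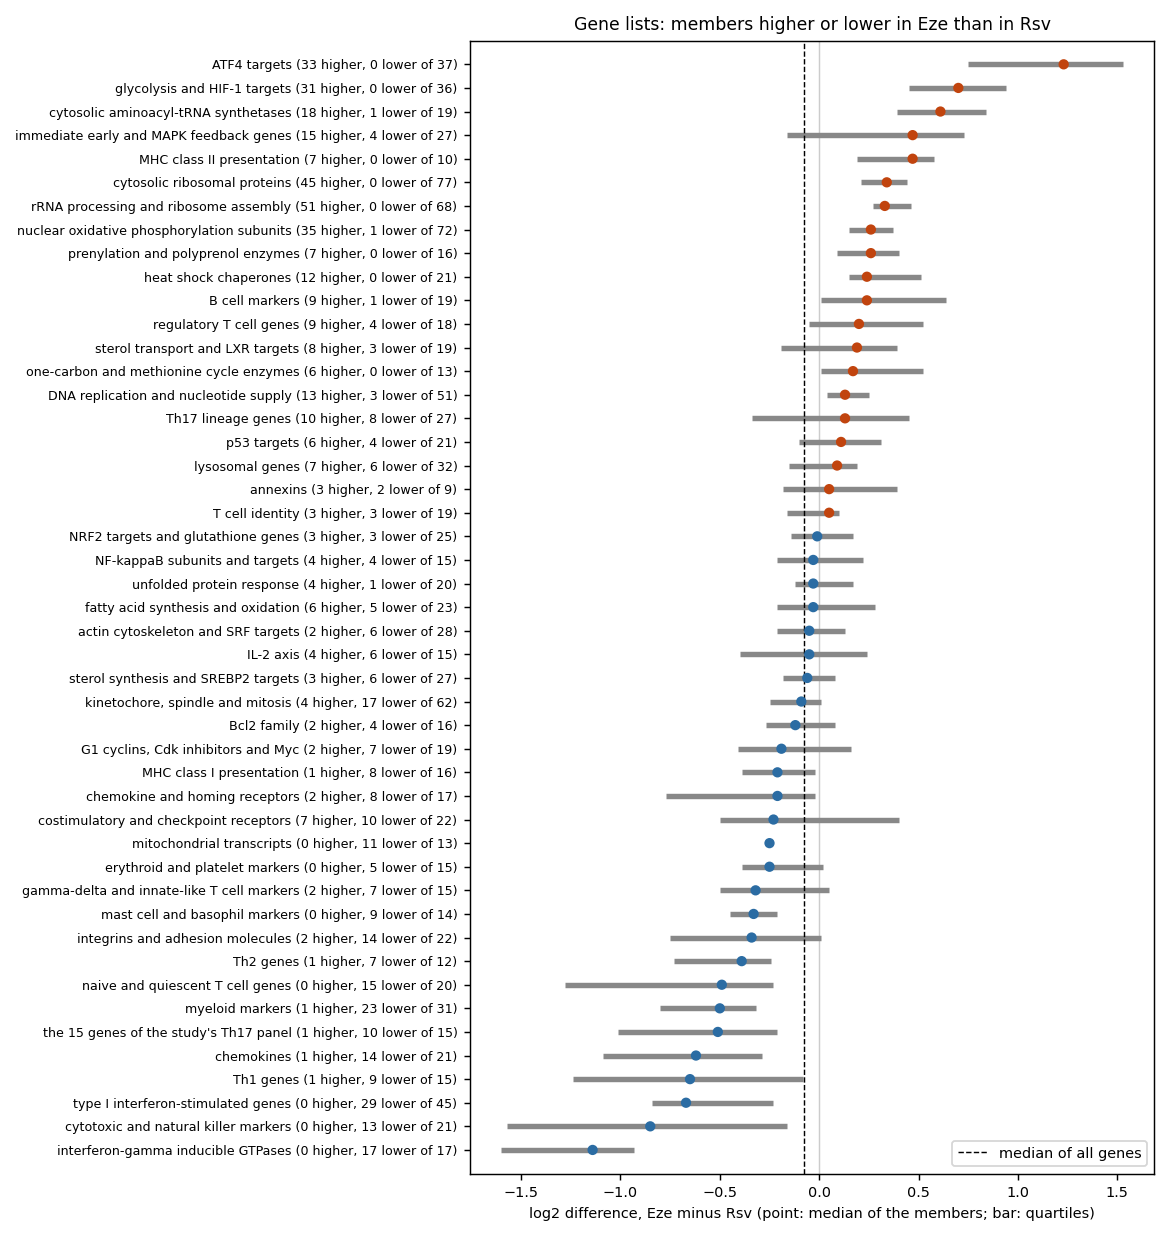
Median log2 difference Eze minus Rsv (points; orange above 0, blue below) with the quartiles of the members (grey bars) for the gene lists and 2 lists added later (mast cell and basophil markers; gamma-delta and innate-like T cell markers); the dashed line is the median of all genes, -0.08. ATF4 targets lie at the top with 33 of 37 members higher in Eze, and interferon-gamma inducible GTPases at the bottom with 17 of 17 lower.

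On the other side, interferon-γ and several chemokines were lower in Eze than in Rsv. Xcl1, lymphotactin, a chemokine of activated cytotoxic cells (chromosome 1, 164931644 to 164935527), read 4.45, 4.23, 3.75 and 4.17 in Eze and 7.91, 7.76, 7.71 and 7.83 in Rsv (-3.65, SE 0.12, adjusted p = 4.91e-13). Ifng, interferon-γ, read 3.97, 4.09, 4.43 and 4.18 in Eze and 6.52, 7.2, 7.33 and 7.35 in Rsv (-2.93, SE 0.16, adjusted p = 3.23e-10). Ccl3, a chemokine for monocytes and T cells, read 8.0, 7.7, 7.77 and 7.91 in Eze and 10.71, 10.49, 10.67 and 10.54 in Rsv (-2.76, SE 0.1, adjusted p = 1.55e-12). Xcl1 was at least 4.15-fold and Ifng at least 2.55-fold lower in Eze. In each of the 3 genes the groups were apart, and all Rsv arrays were above the mean of untreated Th17 cells, which was 4.32 ± 0.09 for Xcl1, 3.38 ± 0.2 for Ifng and 7.56 ± 0.11 for Ccl3. The Eze means were 4.15 ± 0.29, 4.17 ± 0.2 and 7.84 ± 0.13 (SD, n = 4 each), so that Ifng in Eze was above untreated Th17 cells but not above Th0 cells (4.39 ± 0.14). Of 15 Th1 genes 9 were lower (60.0%, against 15.2% of all genes) and 1 was higher (median -0.65). Of 21 chemokines 14 were lower (66.7%), but only 6 of the 21 were above the upper quartile of the background controls. The chemokine Ccl20 was higher (0.36, SE 0.11, adjusted p = 0.0213), a call that was lost under 5 other settings (largest adjusted p = 0.195). The receptor of IL-18 was lower in both of its chains, Il18r1 (-2.11, SE 0.09, adjusted p = 2.07e-11) and Il18rap (-1.34, SE 0.13, adjusted p = 2.77e-07). Other cytokines of the Th1 list were not lower. Lta, lymphotoxin alpha, was the higher Th1 gene (1.3, SE 0.09, adjusted p = 6.64e-09), and Tnf was not called (0.2, SE 0.09, adjusted p = 0.0831). Tbx21, the master factor of Th1 cells, was not called, with 6.24 ± 0.21 in Eze and 6.33 ± 0.17 in Rsv (-0.09, SE 0.14, adjusted p = 0.685, 95% interval -0.39 to 0.22).

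Cytotoxic genes were lower in Eze as well. Of 21 cytotoxic and natural killer markers 13 were lower in Eze and none was higher, 9 of them by at least 2-fold (median -0.85). Gzmb, granzyme B, read 7.43, 7.6, 7.74 and 7.58 in Eze and 10.3, 10.52, 10.7 and 10.61 in Rsv (-2.95, SE 0.09, adjusted p = 4.91e-13), Gzmc read 2.71, 3.14, 3.71 and 3.54 in Eze and 6.19, 7.05, 6.87 and 6.96 in Rsv (-3.49, SE 0.22, adjusted p = 2.18e-09), and Gzma read 5.32, 5.38, 5.45 and 5.54 in Eze and 7.45, 7.87, 8.08 and 8.05 in Rsv (-2.44, SE 0.11, adjusted p = 3.47e-11). Gzma was at least 4.32-fold and Gzmc at least 2.02-fold lower in Eze. Prf1, perforin, was lower as well (-1.57, SE 0.11, adjusted p = 5.45e-09). The granzyme order against untreated cells was not the same for each gene: Gzma averaged 7.86 ± 0.29 in Rsv against 8.08 ± 0.04 in Th17, whereas Gzmb averaged 10.53 ± 0.17 in Rsv against 8.89 ± 0.1 in Th17 (SD, n = 4 each). Gzmc has close relatives in the same gene cluster, so its signal may be shared with them, although its feature is marked as unique. Both chains of CD8 were lower in Eze too: Cd8a read 6.0, 5.85, 5.75 and 5.72 in Eze and 7.07, 7.27, 7.49 and 7.51 in Rsv (-1.5, SE 0.12, adjusted p = 2.84e-08), and Cd8b1 read 6.82, 6.83, 6.76 and 6.66 in Eze and 7.6, 7.78, 7.96 and 7.92 in Rsv (-1.05, SE 0.09, adjusted p = 8.55e-08), without overlap. Cd4 did not separate, at 9.95, 10.17, 10.25 and 10.27 in Eze and 9.88, 10.14, 10.24 and 10.19 in Rsv (0.05, SE 0.1, adjusted p = 0.747). In such bulk samples, fewer cells of a type and less RNA per cell cannot be told apart.

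Markers of cells other than T cells moved with the drugs as well. T cell identity genes were called in 3 cases each way of 19 (median 0.05, and -0.06 after another quantile normalization), and their mean level overlapped, at 8.68 to 8.77 over the Eze arrays and 8.6 to 8.78 over the Rsv arrays. Cd3e was lower in Eze (-0.59, SE 0.08, adjusted p = 1.21e-05) and Trat1, a receptor-associated adaptor, was higher (1.21, SE 0.09, adjusted p = 2.01e-08). Myeloid markers were lower in Eze in 23 of 31 and higher in 1 (median -0.50), with a mean level of 4.33 to 4.38 in Eze and 4.89 to 4.97 in Rsv, against 4.39 to 4.53 in Th17, and 8 of the 31 were above the upper quartile of the background controls. Lyz2, lysozyme (-1.94, SE 0.16, adjusted p = 7.87e-08), and Clec4e, a lectin of macrophages (-1.93, SE 0.16, adjusted p = 5.18e-08), led the lower ones. Batf3 was the higher one (0.58, SE 0.14, adjusted p = 0.00365). B cell markers were higher in Eze in 9 of 19 and lower in 1 (median 0.24), with a mean level of 5.43 to 5.47 in Eze and 5.07 to 5.28 in Rsv, against 4.88 to 5.03 in Th17. Ebf1, a transcription factor of B cells, was higher (0.98, SE 0.14, adjusted p = 3.95e-05). Ighm, the μ heavy chain, was lower (-0.57, SE 0.07, adjusted p = 7.9e-06), but Ighm Eze minus Rsv was 0.03 (adjusted p = 0.836) with the mean of all its features. MHC class II genes, which B cells and myeloid cells carry, were higher in 7 of 10 and never lower (median 0.47), for example H2-Ab1 (1.01, SE 0.08, adjusted p = 1.8e-08). Erythroid and platelet markers, none of which was above the upper quartile of the background controls, were lower in 5 of 15 (2 lower and 2 higher with each array centred). What part these cells had in the differences of the effector genes was not tested.

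Most genes that interferons induce were lower in Eze. The Th17 medium held an antibody to interferon-γ in both cultures. All 17 interferon-γ inducible GTPases measured, proteins that attack vacuoles of pathogens, were lower in Eze and none of them overlapped between the drugs (median -1.14). The list averaged 5.83 to 6.01 over the Eze arrays and 7.18 to 7.37 over the Rsv arrays, against 6.26 to 6.46 in Th17 and 6.86 to 6.93 in Th0. Iigp1 read 6.17, 5.87, 6.13 and 6.06 in Eze and 8.92, 9.0, 9.1 and 8.99 in Rsv (-2.95, SE 0.09, adjusted p = 3.93e-13), Gbp2 read 8.38, 8.3, 8.48 and 8.57 in Eze and 10.75, 10.74, 10.81 and 10.78 in Rsv (-2.34, SE 0.07, adjusted p = 3.93e-13), and Gbp7 read 6.01, 6.38, 6.47 and 6.13 in Eze and 7.79, 8.15, 8.12 and 8.07 in Rsv (-1.78, SE 0.12, adjusted p = 2.61e-09). These families hold close copies, so their members are not independent measurements. Rsv lay above Th17 in Iigp1 but near it in Gbp2, which averaged 10.77 ± 0.03 in Rsv and 10.48 ± 0.03 in Th17 (SD, n = 4 each). Genes of the type I interferon response were lower in 29 of 45 and higher in none (median -0.67), led by Ifi203 (-2.44, SE 0.13, adjusted p = 1.81e-10), Phf11b (-2.06, SE 0.09, adjusted p = 1.85e-11) and Parp12 (-1.42, SE 0.15, adjusted p = 1.02e-06). Irf7, a factor that amplifies the response, was lower (-0.84, SE 0.11, adjusted p = 2.36e-05). Isg15, a ubiquitin-like protein that the response induces, was not called (difference 0.05, SE 0.18, adjusted p = 0.867). MHC class I presentation was lower in 8 of 16 and higher in 1 (median -0.21), against 4 lower and 3 higher with each array centred, with Tapbp, tapasin, first (-1.12, SE 0.07, adjusted p = 1.27e-09).

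The interferon-stimulated response element was looked for in the promoters of the GTPases in the same way. These genes were listed as interferon-γ inducible, so many matches were likely here too, whatever the arrays showed. The search took the letters GAAANNGAAA on both strands of the same RefSeq windows. Windows were at hand for 10 of the 17 genes, and 9 of the 10 (90.0%) held the element, against 710 of 18200 tested genes (3.9%). The 3 GTPases with the largest differences for which it could be shown are given along the gene, upstream of the start, with the element in capitals:
Gbp2, chr3:142620559-142620658, plus strand: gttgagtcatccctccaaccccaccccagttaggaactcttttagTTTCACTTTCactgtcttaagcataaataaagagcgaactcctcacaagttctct
Gbp7, chr3:142530238-142530335, plus strand: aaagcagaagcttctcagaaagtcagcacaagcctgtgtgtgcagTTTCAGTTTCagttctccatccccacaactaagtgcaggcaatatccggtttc
Tgtp2, chr11:49064228-49064327, minus strand: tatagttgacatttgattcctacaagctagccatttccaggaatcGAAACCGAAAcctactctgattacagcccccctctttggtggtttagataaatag
In Gbp2 and Gbp7 the element runs against the gene. The differences were -2.34 for Gbp2, -1.78 for Gbp7 and -1.76 for Tgtp2, a T cell GTPase.

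**Figure D3:**
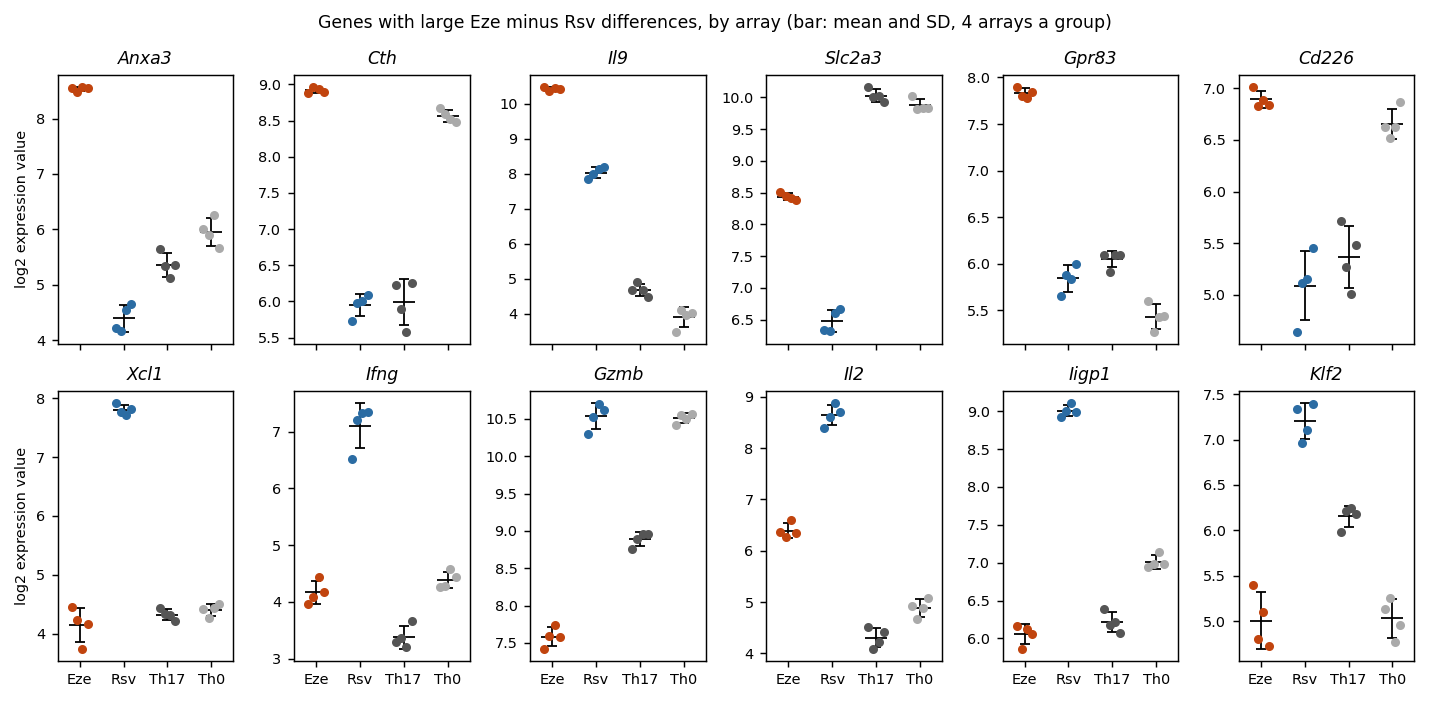
Log2 expression values by array for 12 genes in Eze, Rsv, Th17 and Th0 (points: single arrays, 4 a group; bars: mean and SD). In the upper row all Eze arrays lie above all Rsv arrays, and in the lower row all lie below them; for Il9 both drugs lie above Th17 and Th0.

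Th17 genes did not move as a block. Of 27 genes of the lineage 10 were higher (37.0%) and 8 were lower (29.6%) in Eze (median 0.13). Of the 27, 25 were above the background limit, where 34.0% of genes were higher and 15.8% lower, also with a median of 0.13. The median and the share of higher genes thus did not stand out. Il17a was slightly lower in Eze, at 6.59, 6.47, 6.51 and 6.43 in Eze against 6.85, 6.91, 7.09 and 7.29 in Rsv (-0.54, SE 0.15, adjusted p = 0.0129), a call that was lost with each array centred (adjusted p = 0.0829), and Il17f was not called (-0.33, SE 0.14, adjusted p = 0.0941). The arrays of Il17f did not overlap, and it was called with the numbered arrays only (adjusted p = 0.0208) and with the 8 drug arrays alone (adjusted p = 0.0155). The receptors were split. Il1r1, the receptor of IL-1, read 4.51, 4.81, 4.36 and 4.76 in Eze and 7.09, 7.31, 7.32 and 7.35 in Rsv (-2.66, SE 0.13, adjusted p = 1.4e-10), at least 2.86-fold lower in Eze. Il23r, the receptor of IL-23, had a difference of -0.96 (SE 0.11, adjusted p = 4.77e-06) and Il6ra, the receptor of IL-6, one of -1.03 (SE 0.08, adjusted p = 3.02e-08), both lower in Eze. Il12rb1, a chain that the receptors of IL-12 and IL-23 share, was higher (0.87, SE 0.08, adjusted p = 1.91e-07), and Il1r2 (0.25, SE 0.11, adjusted p = 0.109), Il21r (-0.02, SE 0.08, adjusted p = 0.892) and Ccr6 (0.16, SE 0.09, adjusted p = 0.214) were not called. Several cytokines were higher: Il24 (1.62, SE 0.08, adjusted p = 7.33e-11), Il21, which follicular helper and Th17 cells make (1.29, SE 0.09, adjusted p = 6.29e-09), and Csf2, which encodes GM-CSF (1.15, SE 0.15, adjusted p = 2.05e-05). Il23a, the p19 chain of IL-23, was also higher, at 6.39, 6.55, 6.66 and 6.41 in Eze and 4.25, 4.2, 4.67 and 4.47 in Rsv (2.11, SE 0.15, adjusted p = 8.35e-09). A published panel of 15 Th17 differentiation genes was picked on these same arrays, so its direction is no independent evidence. Of the 15, 10 were lower in Eze and 1, Jak3, was higher (0.23, SE 0.08, adjusted p = 0.0353), a call that was lost under 9 other settings (largest adjusted p = 0.127). Jun (-1.34, SE 0.09, adjusted p = 2.56e-09) and Ifngr1 (-1.1, SE 0.1, adjusted p = 1.31e-07) were among the lower ones. Stat3 was not called (0.13, SE 0.07, adjusted p = 0.19), but it was with each array centred (0.28, adjusted p = 0.0117).

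Il9 parted from both controls. Its values were 10.48, 10.35, 10.45 and 10.41 in Eze and 7.85, 7.97, 8.12 and 8.17 in Rsv (2.39, SE 0.12, adjusted p = 1.64e-10), while untreated Th17 cells averaged 4.69 ± 0.17 and Th0 cells 3.9 ± 0.28 (SD, n = 4 each). The cytokine, a growth factor for mast cells and T cells, was thus highest with ezetimibe, and with rosuvastatin it still lay above every untreated array. Il2, the growth factor of activated T cells, kept the opposite order between the drugs: it read 6.36, 6.27, 6.6 and 6.34 in Eze and 8.39, 8.61, 8.87 and 8.7 in Rsv (-2.25, SE 0.12, adjusted p = 2.28e-10), and 4.31 ± 0.19 on average in Th17. Both cytokines were above the untreated arrays with either drug, but Il9 more so with ezetimibe and Il2 more so with rosuvastatin. Of the Th2 cytokines, Il3 (-2.39, SE 0.14, adjusted p = 8.5e-10), Il13 (-1.64, SE 0.11, adjusted p = 4.26e-09) and Il4 (-0.55, SE 0.12, adjusted p = 0.00233) were lower in Eze and Il5, a dim gene here, was not called (-0.34, SE 0.13, adjusted p = 0.0663), and 7 of 12 Th2 genes were lower with 1 higher (median -0.39).

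Regulatory T cell genes were split. Foxp3, the factor that defines these cells, read 7.16, 7.18, 7.27 and 7.1 in Eze and 8.29, 8.12, 7.98 and 8.29 in Rsv, without overlap (-0.99, SE 0.11, adjusted p = 2.23e-06). The means of both drugs, 7.17 ± 0.07 in Eze and 8.17 ± 0.15 in Rsv, were above that of Th17 (6.48 ± 0.25). Of 18 genes found in regulatory T cells, Foxp3 included, 9 were higher and 4 lower in Eze (median 0.20). Of the 18, 16 were above the background limit. Among all genes above it the median was 0.13, with 34.0% higher and 15.8% lower. The median of the list was thus close to theirs, with a larger share called each way. Lower besides Foxp3 were Nt5e (-0.95, SE 0.09, adjusted p = 4.2e-07), Lrrc32 (-0.58, SE 0.08, adjusted p = 5.15e-05) and Itgae, a dim gene here (-0.31, SE 0.11, adjusted p = 0.0435). Of the higher ones, 2 were so by at least 2-fold. Gpr83 read 7.9, 7.8, 7.78 and 7.84 in Eze and 5.65, 5.88, 5.84 and 6.0 in Rsv (1.99, SE 0.09, adjusted p = 2.84e-11), and Izumo1r, the folate receptor 4 of these cells, read 8.11, 8.08, 8.04 and 8.11 in Eze and 6.2, 6.06, 6.43 and 6.36 in Rsv (1.82, SE 0.08, adjusted p = 3.2e-11). Among costimulatory and checkpoint receptors 7 were higher and 10 were lower of 22 (7 and 7 with each array centred): Cd226, an activating receptor, was higher at 7.02, 6.83, 6.89 and 6.84 in Eze against 4.64, 5.11, 5.16 and 5.45 in Rsv (1.8, SE 0.15, adjusted p = 8.54e-08), whereas Cd96, which binds the same ligand (-1.45, SE 0.12, adjusted p = 3.73e-08), Havcr2, which encodes TIM-3 (-1.19, SE 0.14, adjusted p = 3.17e-06), and Icos (-0.83, SE 0.08, adjusted p = 6.42e-07) were lower.

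Genes of resting and recirculating T cells were lower in Eze. Of 20 naive and quiescent T cell genes 15 were lower and none was higher, 8 of them by at least 2-fold (median -0.49). Klf2, the transcription factor that drives S1pr1, read 5.4, 4.8, 5.11 and 4.73 in Eze and 7.34, 6.97, 7.11 and 7.39 in Rsv (-2.19, SE 0.14, adjusted p = 2.71e-09), at least 2.74-fold lower in Eze. S1pr1 itself, the receptor for exit from lymphoid organs (-1.08, SE 0.09, adjusted p = 6.17e-08), Klf3 (-2.1, SE 0.11, adjusted p = 1.5e-10), Il7r, the receptor of IL-7 (-1.42, SE 0.1, adjusted p = 4.85e-09), and Tcf7, the factor TCF-1 (-1.23, SE 0.08, adjusted p = 1.35e-09), were all lower. Adhesion molecules were lower in 14 of 22 and higher in 2, with Itga4, the α4 integrin (-2.56, SE 0.09, adjusted p = 9.18e-13), and Selp, P-selectin (-2.27, SE 0.13, adjusted p = 4.14e-10), among the lower ones. Selp was highest in untreated Th17 cells (8.28 ± 0.06).

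Immediate early genes, which T cell receptor and MAP kinase signals switch on within a short time, were higher in 15 of 27 and lower in 4 (median 0.47). Egr1 read 6.75, 6.78, 6.84 and 6.76 in Eze and 5.3, 5.11, 5.34 and 5.26 in Rsv (1.53, SE 0.1, adjusted p = 1.72e-09), and Ier3 (1.17, SE 0.19, adjusted p = 0.00013) and Fosl1 (0.92, SE 0.12, adjusted p = 1.81e-05) were higher too, while Jun was lower. Genes of the cell cycle differed by small steps: DNA replication genes were higher in 13 and lower in 3 of 51 (25.5% higher, median 0.13). All 51 were above the background limit, where 34.0% of genes were higher and the median was also 0.13, so the list did not stand out. Mitosis genes were lower in 17 (27.4%) and higher in 4 (6.5%) of 62. Their median was -0.09, with 0.07 when each array was centred and -0.19 after another quantile normalization. Of the 62, 61 were above the background limit, where 15.8% of genes were lower and 34.0% higher, so the list lay somewhat below other bright genes. Cdkn1a, the inhibitor p21, was higher in Eze (1.16, SE 0.1, adjusted p = 1.6e-07) and near the mean of Th17 (9.77 ± 0.08). Myc was higher by 0.28 (SE 0.07, adjusted p = 0.00588). The list of G1 cyclins, Cdk inhibitors and Myc was lower in 7 and higher in 2 of 19 (5 lower and 6 higher with each array centred). The Bcl2 family was lower in 4 and higher in 2 of 16 (2 and 2 with each array centred): Bcl2l11, which encodes the death factor Bim, was lower in Eze (-1.49, SE 0.08, adjusted p = 3.23e-10) and Bcl2l1, which encodes the survival factor Bcl-xL, was higher (0.7, SE 0.1, adjusted p = 3.76e-05). The other lists are given beside genes above the background limit, of which 34.0% were higher and 15.8% lower, with a median of 0.13. Enzymes of the one-carbon and methionine cycles were higher in 6 of 13 (46.2%) and never lower, with a median of 0.17 near that value. Chemokine and homing receptors were lower in 8 (47.1%) and higher in 2 of 17 (median -0.21). The list of fatty acid synthesis and oxidation was higher in 6 and lower in 5 of 23 (median -0.03, and 0.13 with each array centred), lysosomal genes were higher in 7 and lower in 6 of 32 (median 0.09), and genes of the IL-2 axis were higher in 4 and lower in 6 of 15 (median -0.05, and 0.11 with each array centred).

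MicroRNA genes were called lower in 88 (15.6%, against 15.2% of all genes) and higher in 30 of 563. The direction turned with each array centred, to 39 lower and 72 higher, and the median of -0.08 became 0.08. Mir155, whose product is known for its part in T cell activation and Th17 responses, read 8.03, 8.03, 8.08 and 8.17 in Eze and 6.94, 7.28, 7.16 and 7.31 in Rsv (0.91, SE 0.09, adjusted p = 9.44e-07). The feature lies on chromosome 16, 84713023 to 84715242 and is longer than the hairpin, so it also reads the transcript around it. Mir29a, of the family that restrains Th1 genes in the mouse, read 4.75, 5.28, 5.15 and 5.01 in Eze and 2.72, 3.57, 3.49 and 4.17 in Rsv (1.56, SE 0.25, adjusted p = 0.000117). Of the cluster of miR-17 to miR-92, Mir18 (1.07, SE 0.12, adjusted p = 2.21e-06) and Mir19a (1.03, SE 0.13, adjusted p = 1.01e-05) were called and Mir17 (0.24, SE 0.09, adjusted p = 0.07) and Mir20a (0.27, SE 0.18, adjusted p = 0.275) were not, but Mir17 was with each array centred (0.39, adjusted p = 0.00669). These features are marked as matching several targets, and the differences between them were not tested. The Eze and Rsv arrays did not overlap for Mir155, Mir29a, Mir18 and Mir19a. Their values are levels of the gene's transcript, not of the mature miRNA. The mature products of 3 of them, from RefSeq on GRCm38.p6, are shown with the seed, bases 2 to 8, in capitals, and no seed is shared:
miR-155-5p, chr16:84714143-84714165, plus strand: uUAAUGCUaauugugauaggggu
miR-18a-5p, chr14:115043867-115043889, plus strand: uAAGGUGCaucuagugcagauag
miR-29a-3p, chr6:31062673-31062694, minus strand: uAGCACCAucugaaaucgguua

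The T cell receptor gamma locus held some of the largest decreases. Its segments, which γδ T cells rearrange, filled 7 of the 15 places among the genes with the largest decreases in Eze. Tcrg-C1, a constant region (chromosome 13, 19214103 to 19216618), read 5.56, 5.72, 5.57 and 5.41 in Eze and 7.99, 8.61, 8.86 and 9.01 in Rsv (-3.05, SE 0.16, adjusted p = 1.96e-10), and Tcrg-C2 read 6.11, 6.17, 6.42 and 6.33 in Eze and 9.44, 9.79, 9.72 and 9.7 in Rsv (-3.4, SE 0.12, adjusted p = 9.18e-13). The joining segment Trgj4 read 5.76, 5.75, 5.79 and 5.88 in Eze and 9.25, 9.31, 9.5 and 9.26 in Rsv (-3.54, SE 0.12, adjusted p = 9.29e-13). All Rsv arrays were far above all Eze arrays, and Tcrg-C1 was at least 7.3-fold lower in Eze. In Tcrg-C1 the Eze mean (5.57 ± 0.13) lay close to that of Th17 (5.62 ± 0.08) and above that of Th0 (4.51 ± 0.17, SD, n = 4 each). The 14 features of the locus averaged 4.2 to 4.45 in Eze and 6.18 to 6.53 in Rsv, against 4.36 to 4.48 in Th17 and 4.06 to 4.2 in Th0. The features, taken by symbol after their values had been seen, were lower in 12 of 14 and had a median difference of -2.46. They are not 14 independent measurements, because 9 of them are marked as matching several targets and the constant regions are close copies. Among the variable segments the differences were unequal: Tcrg-V4 (-1.98, SE 0.16, adjusted p = 5.77e-08), marked as unique, and Trgv2 (-2.02, SE 0.19, adjusted p = 3.34e-07) were lower by more than Tcrg-V1 (-1.07, SE 0.09, adjusted p = 6.99e-08), while Tcrg-V5 (-0.21, SE 0.1, adjusted p = 0.12) and Tcrg-V7 (-0.19, SE 0.13, adjusted p = 0.313), both near the floor of the arrays, were not called.

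The other receptor loci had smaller differences. Of 4 delta variable segments 1 was called, Trdv2-2 (-0.49, SE 0.13, adjusted p = 0.00736), and the median was -0.14 (0.02 with each array centred). Trdv1 read 4.38, 4.07, 4.31 and 4.18 in Eze and 4.17, 3.9, 4.18 and 4.31 in Rsv, with overlap (0.09, SE 0.11, adjusted p = 0.562). The 134 alpha segments had a median of -0.28 (58 lower, 1 higher) and the 30 beta segments one of -0.44 (21 lower, none higher), and none of them was called at 2-fold. The constant regions Trac (-0.39, SE 0.07, adjusted p = 0.000218) and Trbc2 (-0.6, SE 0.07, adjusted p = 4.93e-06) were lower by the same order. A list of 15 measured genes of γδ and innate-like T cells was added after the gamma locus had been seen. In it 7 were lower and 2 higher (median -0.32), and 2 were lower and 1 higher by at least 2-fold. Only 3 of the 15 were above the upper quartile of the background controls. Zbtb16, the factor PLZF (-0.5, SE 0.11, adjusted p = 0.00272), and Cd163l1, which encodes SCART1 (-0.67, SE 0.13, adjusted p = 0.000676), both dim here, were among the lower ones. Cpa3, carboxypeptidase A3, an enzyme of mast cells and basophils, read 2.51, 2.67, 2.67 and 2.56 in Eze and 5.25, 6.1, 6.09 and 5.67 in Rsv (-3.18, SE 0.18, adjusted p = 6.26e-10). Its Eze values lay at the median of the background controls (2.52) and its Rsv mean was just above the limit of detection, so no size of the difference is given beyond the fitted value. Of 14 mast cell and basophil markers, a list also added later, 9 were lower in Eze (median -0.33), but only Cpa3 by over 2-fold as fitted, and 1 of the 14 was above the upper quartile of the background controls.

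A second group of features that stood apart lay on chromosome Y. Of 149 genes there, 115 were lower and 3 higher in Eze, 99 of the lower ones by at least 2-fold, with a median difference of -1.56, against -0.04 over 1384 genes on chromosome X and -0.08 over 1710 genes on chromosome 1. The difference lay in the repeated families of the long arm, which are known from spermatids: Ssty2 read 5.05, 5.12, 5.43 and 5.26 in Eze and 6.57, 7.13, 7.17 and 7.38 in Rsv (-1.85, SE 0.13, adjusted p = 1.04e-08), Srsy read 4.4, 4.41, 4.55 and 4.31 in Eze and 5.91, 6.4, 6.33 and 6.47 in Rsv (-1.86, SE 0.12, adjusted p = 3.24e-09), and Sly read 3.24, 3.37, 3.74 and 3.38 in Eze and 4.81, 5.33, 5.57 and 5.82 in Rsv (-1.95, SE 0.16, adjusted p = 5.37e-08). Of the 131 features on the chromosome that are marked as matching several targets, 112 were lower in Eze and none was higher (median -1.69). Of the 18 marked as unique, 3 were lower and 3 higher (median -0.07). The genes that all male cells use were among the unique ones. Ddx3y read 7.52, 7.22, 7.42 and 7.38 in Eze and 7.41, 7.59, 7.44 and 7.36 in Rsv (-0.07, SE 0.09, adjusted p = 0.614), Uty was not called (0.05, SE 0.09, adjusted p = 0.717), and Eif2s3y (0.34, SE 0.11, adjusted p = 0.0256) and Kdm5d (0.44, SE 0.14, adjusted p = 0.022) were slightly higher in Eze. The calls of Eif2s3y and Kdm5d were each lost under 5 other settings (largest adjusted p = 0.137 and 0.0876). All mice were male by label. Against untreated Th17 cells (7.72 ± 0.12) Uty was low under both drugs, at 6.97 ± 0.14 in Eze and 6.93 ± 0.07 in Rsv (SD, n = 4 each). The repeated features averaged 3.9 to 4.09 in Eze and 5.07 to 5.66 in Rsv, against 4.37 to 4.47 in Th17 and 4.53 to 4.59 in Th0, so that Eze lay below and Rsv above both untreated groups. The 131 features share sequence and are far fewer independent measurements than their number.

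Repeated families elsewhere moved in part. Vomeronasal type 1 receptors, pheromone receptors that T cells are not known to use, were lower in Eze in 67 of 202 and higher in none, 26 of them by at least 2-fold, with a median of -0.20. Olfactory receptors were lower in 205 of 1138 (median -0.18), close to the 15.2% of all genes, and 3 of them by at least 2-fold. Over the whole array, 1043 of 3715 genes whose feature matches several targets were lower (28.1%) and 275 higher, against 3642 of 27205 unique ones (13.4%) lower and 3842 higher. Without the unnumbered Rsv array the medians were -1.68 for chromosome Y and -2.58 for the gamma locus, and with each array centred -1.40 and -2.31. The mean of the intron control probes was 4.21 to 4.33 over the Eze arrays and 4.09 to 4.31 over the Rsv arrays. These are normalized values, and why the repeated features were higher in Rsv was not tested. The separation of exon from intron controls, given as the area under the curve, lay at 0.890 to 0.894 in the Eze arrays and at 0.877 to 0.881 in the Rsv arrays, against 0.876 to 0.881 in Th17.

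**Figure D4:**
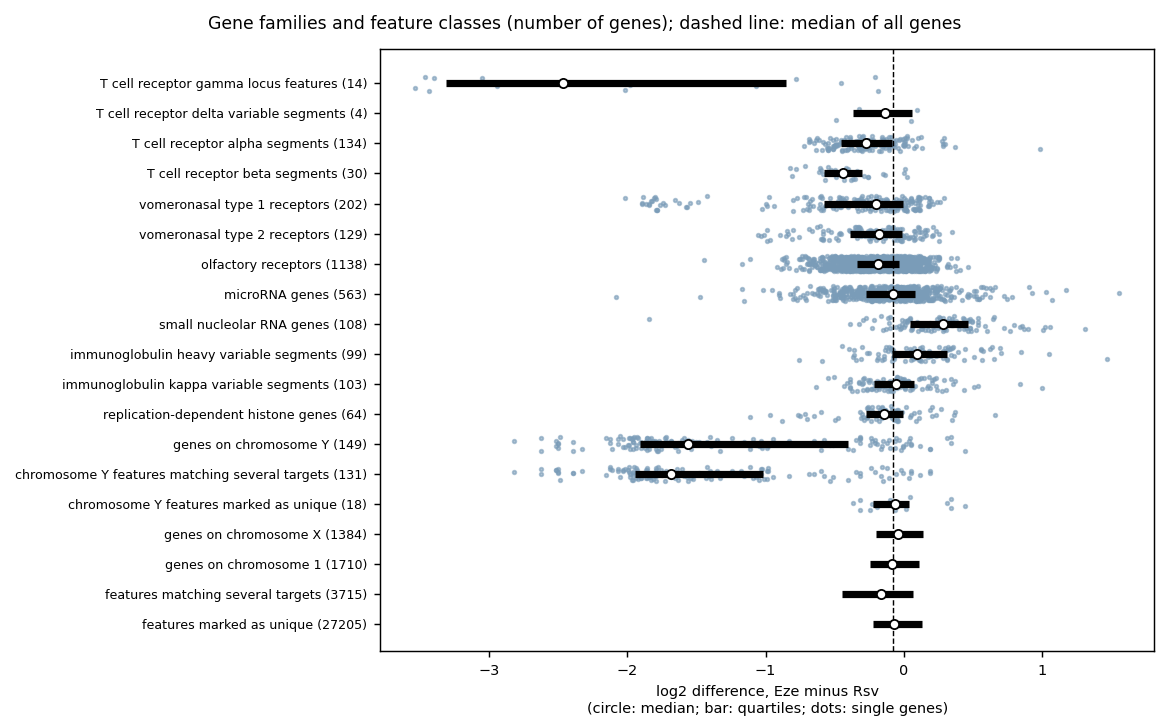
Log2 difference Eze minus Rsv for gene families taken by symbol, for chromosomes and for classes of features, with the number of genes in brackets (white circles: medians; black bars: quartiles; dots: single genes, except in the largest groups). The gamma locus (median -2.46) and the features of chromosome Y that match several targets (median -1.69) lie far to the left, while the unique features of chromosome Y and chromosome X lie near the median of all genes (dashed line, -0.08) and the beta segments at -0.44.

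The numbers of calls held under most other ways of fitting the same values. Without 1 array at a time, 3453 to 4151 genes were higher and 3629 to 4852 lower in Eze. With the 3 numbered arrays of each group alone, 3077 were higher and 3358 lower, and with the unnumbered arrays as a block in the fit 4273 were higher and 4796 lower. The exact Mann-Whitney test that the methods name gives p = 0.0286 at the least with 4 arrays against 4, so that no gene could pass an adjustment over 30920 genes by it; at an unadjusted p under 0.05 it passed 4226 higher and 4630 lower genes, the same as the number that did not overlap.

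**Figure D5:**
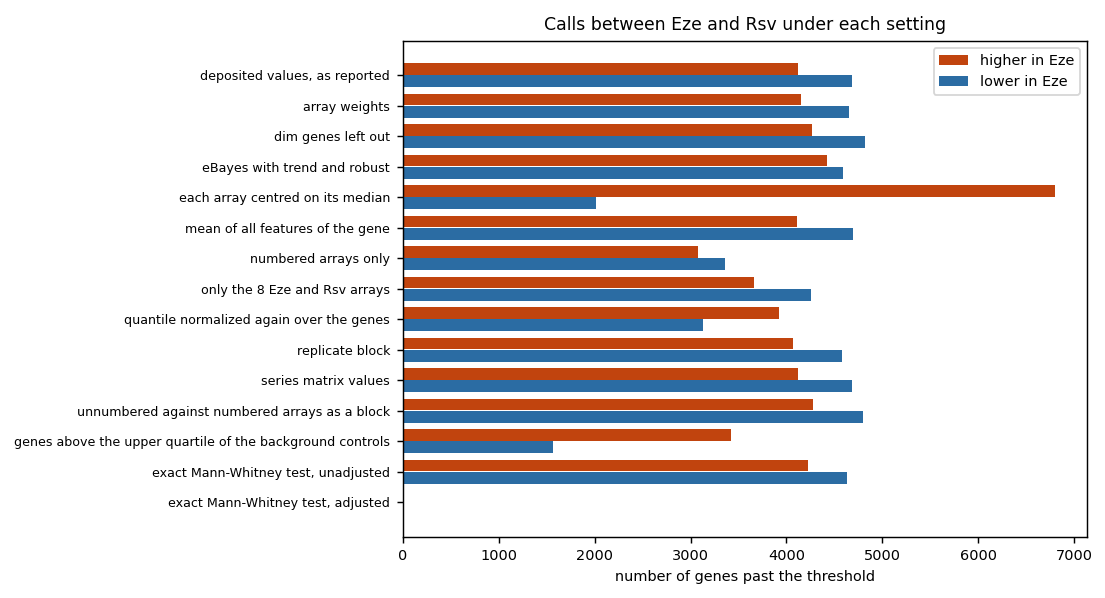
Number of genes called higher (orange) and lower (blue) in Eze than in Rsv under each setting. The counts with the deposited values were 4117 and 4685; centring each array on its median gave 6796 and 2010, and the adjusted Mann-Whitney test gave none.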

How the data were processed

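RNA was extracted with Trizol and measured on Mouse Gene 2.0 ST arrays, 4 per group. The deposited log2 values were made by the authors, who name preprocessing by the "range migration algorithm" (its initials are those of robust multi-array average) and quantile normalization; versions are not given in the sources used here. The methods speak of sequencing, but the files hold array values, and the deposited table of the series and the workbook held identical log2 values. Of 41345 features, 31872 main ones had 1 gene symbol, and the feature with the highest mean of each of 30920 genes was used. Differences were fitted with limma 3.58.1 in R 4.3.3 (lmFit and eBayes, 4 group means over 16 arrays, two-sided, Benjamini-Hochberg adjustment over all genes, threshold 0.05); the code was tested on simulated data. The number of arrays limits the precision (median SE 0.11).

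Genes were named by rule: the 15 largest called differences in each direction without overlap and above the median of the background controls, the leading members of 46 lists, and fixed anchors. Outside it, the variable segments of the T cell receptor, Trac, Trbc2, the chromosome Y genes, Zbtb16, Cd163l1, the microRNA genes, Asns, Vldlr, Tgtp2, Isg15, Cd8a, Cd8b1, Npc2, Scarb1, Irf7, Pgk1, Il7r, Tcf7, Prf1, Csf2, Il12rb1, Il1r2, Il21r, Ccr6 and Il5 were chosen after their values were seen, as were 2 lists and the gene families. Tnf, Lrrc32, Nt5e and Itgae were also chosen after their values were seen. Members and lists were chosen with earlier results of these data known. The alternatives covered scaling, filters, features per gene, array weights, blocks, variance model, test and leaving out each array. Some genes and lists are not reported here.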

Additional observations from a re-analysis of the deposited data

Results flagged for a closer look

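In 26 of 552 groups of 4 arrays (the values of a named gene or the mean of a list, in Eze or in Rsv), 1 array lay so far from the other 3 that its gap exceeded 0.829 of the whole range, Dixon's critical value for 4 samples. That is 4.71% of the groups, and chance alone gives about 1 in 20. The unnumbered Rsv array was the one apart in 7 of them, array 1 of Eze in 6 and the unnumbered Eze array in 6.

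In Eze, the unnumbered array was apart for Wars (8.22), Abcc1 (7.92), Utp14a (6.83), Noc2l (9.09), Cenph (7.35) and Ssty1 (5.28). Array 1 of Eze was apart for Sel1l (7.92), Pdia3 (9.02) and Plk2 (6.53), and for the means of the lists of sterol transport and LXR targets (6.15), Th17 lineage genes (7.32) and interferon-γ inducible GTPases (5.83). Array 3 of Eze was apart for S1pr1 (7.25) and array 2 for the mean of lysosomal genes (6.97).

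In Rsv, the unnumbered array was apart for Paqr3 (4.74), Il1r1 (7.09), Jak3 (8.0), Scd1 (7.91) and Tnfrsf10b (6.25), and for the list means of cytosolic aminoacyl-tRNA synthetases (8.02) and of fatty acid synthesis and oxidation (7.54). Array 2 was apart for Insig2 (5.7) and Pdia4 (6.39), array 3 for Hspa1a (4.75) and Ndufs5 (4.45), and array 1 for the mean of MHC class II presentation (5.84).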

How the results depend on the processing

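The counts of genes higher in Eze than in Rsv, genes lower in Eze than in Rsv, genes at least 2-fold higher in Eze than in Rsv and genes at least 2-fold lower in Eze than in Rsv each stayed within 1.5 times its value with the 8 drug arrays alone, with the values quantile normalized again (3920 higher and 3125 lower, 55.6% of the calls higher), with the mean of all features of a gene, with dim genes left out, with array weights, with another variance model (4422 and 4593), with numbered arrays only and with either block. Centring each array gave 6796 higher and 2010 lower genes and 383 at least 2-fold higher. Keeping only genes above the upper quartile of the background controls, an alternative chosen after seeing the data, gave 1567 lower genes and 328 at least 2-fold lower; fewer genes were tested. The Mann-Whitney test gave 0 genes in each of the 4 counts after adjustment and 4226 higher and 4630 lower unadjusted. Ighm Eze minus Rsv changed sign with the mean of all its features (0.03). Of 218 called genes named in the text or by rule, 26 lost the call or changed sign under at least 1 setting: 16 were lost with each array centred, 12 with the values quantile normalized again, 10 with numbered arrays only, 4 with the 8 drug arrays alone, 1 each with array weights, with the replicate block and with the mean of all features, and 2 to 9 when 1 array was left out. The replicate numbers were not taken as pairs, since the deviations of same-numbered Eze and Rsv arrays from their group means correlated by 0.134 (unnumbered), 0.009, 0.102 and -0.002. With the replicate number as a block, 4072 genes were higher and 4582 lower. Leaving out 1 array at a time gave 3453 to 4151 higher and 3629 to 4852 lower genes, 201 to 256 at least 2-fold higher and 496 to 585 at least 2-fold lower. Signal limits what can be said of dim genes: 9088 of 30920 were above the upper quartile of the background controls.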
